A study of Danio rerio with 4 samples.

Results

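The IGF-binding proteins were examined in zebrafish brain cells sorted for a pdgfrb-driven EGFP. Members were all Ensembl gene IDs of the count table whose symbol, with case ignored, is igfbp with a digit from 1 to 7 and, where present, a final a or b. The rule found 10 of 32105 IDs. They are IGFBP1, igfbp1b, IGFBP2 (ENSDARG00000031422 and ENSDARG00000052470), IGFBP3, IGFBP5 (ENSDARG00000025348 and ENSDARG00000039264), igfbp6a, igfbp6b and IGFBP7. The symbol table writes both IGFBP2 IDs and both IGFBP5 IDs without a copy letter. In RefSeq (assembly GRCz12tu) igfbp2a carries igfbp2b as a synonym and the reverse, and the igfbp5 genes do likewise, so these IDs are told apart here by number and receive no letter.

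RNA was sequenced from 4 libraries of a single group, EGFP-positive cells of adult wildtype fish carrying the transgene labelled pdgfr beta egfp. Each library came from a pool of 6 brains dissociated with Liberase, and the extracted RNA was amplified. The titles and source names call the cells pericytes, a cell type tag reads muLEC, and the design text speaks of triplicates although 4 samples are listed. The names B1 to B4 come from the count columns, which cannot be tied to single sample labels.

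IGF-binding proteins are secreted proteins that hold insulin-like growth factors (IGFs) outside the cell. They keep the factors from the IGF1 receptor, prolong their stay in tissue and, once cleaved by proteases, release them again. IGFBP7 is an atypical relative with low affinity for IGFs that in mammals is found in vascular basement membrane. The genome duplication of teleost fish left a pair of copies of several of these genes. In the RefSeq gene order igfbp3 and igfbp1a have 0 genes between them, and so do igfbp5a and igfbp2a, while igfbp2b and igfbp5b are separated by 2 genes, of which 0 code for protein.

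Total counts ran from 33270774 to 40441253 per library, and 3 counts corresponded to between 0.0751 and 0.0879 CPM (counts scaled to 1e6 reads of the normalised library), a limit set by counting alone. Among the marker lists, PDGFRB stood at 115 ± 75.5 CPM (mean ± SD over n = 4 libraries, as for every such value), and 10 of 14 tested pericyte IDs were called above the median tested gene by edgeR, as were 36.8% of all tested genes. The same call was given to 11 of 14 radial glia, 8 of 10 oligodendrocyte and 6 of 8 smooth muscle IDs that were tested. It was also given to 8 of 14 fibroblast, 4 of 7 microglia and 5 of 11 neuron IDs. For lymphatic and muLEC markers it was 4 of 9 IDs, and for endothelial markers 4 of 14. The pericyte marker CSPG4 was called below the median tested gene, at 1.19 ± 0.823 CPM (log2 -3.41). KCNJ8 (11.3 CPM), ABCC9 (16.0 CPM) and TBX18 (17.4 CPM) did not pass in either direction. Radial glia markers were the most abundant, with a summed level of 28133 CPM in B1 and 47494 to 52660 CPM in the others. Of the 14 radial glia IDs 0 had no reads in all libraries. Endothelial markers summed to 257 to 529 CPM, lymphatic and muLEC markers to 198 to 358 CPM, fibroblast markers to 1028 to 5461 CPM, smooth muscle markers to 450 to 788 CPM, oligodendrocyte markers to 1407 to 4061 CPM and microglia markers to 1331 to 3328 CPM, again with 0 IDs without reads in all libraries. Within the microglia list apoeb (mean 1434 CPM), cd74b (250 CPM) and cd74a (202 CPM) were the most abundant. AIF1L stood at 40.8, ptprc at 11.6, SPI1 at 4.54, csf1ra at 1.76 and csf1rb at 0.840 CPM. P2RY12, at 0.229 CPM, had 0 reads in B2 and B3. In such bulk samples fewer cells of a type and less RNA per cell cannot be told apart. The labels say only that the pools are separate samples. A p-value therefore sets a difference in level between genes against the spread between these pools, which may in part be technical.

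The IGFBP transcripts of the sorted cells came mainly from 3 IDs. Together IGFBP2 (ENSDARG00000052470), IGFBP5 (ENSDARG00000025348) and IGFBP3 held 86.6 ± 4.16% of all igfbp counts, between 82.1% and 91.9% in single libraries. All 10 IDs together reached 587 ± 227 CPM, with 886, 590, 336 and 535 CPM in B1 to B4. The order of the leading 3 was not the same in every library, as the plot of igfbp composition shows. Levels of different genes are compared throughout as read counts, because no transcript lengths were used, and a longer transcript gives more reads.

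**Figure D1:**
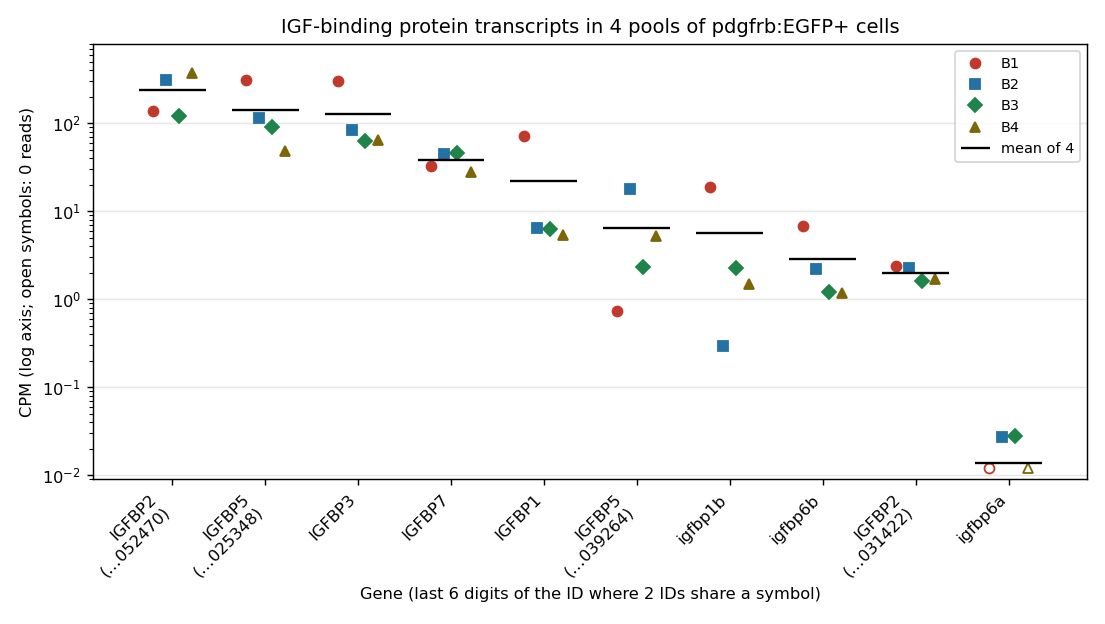
CPM of the 10 IGF-binding protein genes (log axis) in libraries B1 to B4, ordered by mean; each symbol is 1 library, the bar is the mean of 4, and open symbols mark libraries with 0 reads. IGFBP2 (ENSDARG00000052470) leads at a mean of 238 CPM and igfbp6a ends the order with 2 reads in total. In B1 IGFBP1, igfbp1b, IGFBP3 and igfbp6b stand at least 3-fold above every other library.

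IGFBP2 (ENSDARG00000052470) was the most abundant member. Its protein binds both IGFs and is, in mammals, the main IGF-binding protein of brain and cerebrospinal fluid. It was measured at 137, 316, 122 and 378 CPM in B1 to B4, a mean of 238 ± 128 CPM. B2 and B4 were high and B1 and B3 low. Among tested genes its CPM lay between percentile 93.4 and percentile 98.5 of each library.

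Its level was 4.24 ± 0.34 (SE) log2 units above that of the median tested gene, which stood at 12.6 CPM and is called the reference level (edgeR's quasi-likelihood test, Benjamini-Hochberg adjusted p = 3.14e-06). Of the 9 igfbp IDs tested, those that reached 1 CPM in 2 or more libraries, 4 lay above the reference level and 2 below it. Of all 17283 tested genes 36.8% lay above and 33.2% below. The tested members had a median of 0.83 log2 units over the reference level, against 0.00 for all tested genes. That median is the value of IGFBP1, and it was -0.57 without B1 and -0.0417 with limma.

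IGFBP5 (ENSDARG00000025348) and IGFBP3 followed. IGFBP5 encodes a binding protein that attaches to extracellular matrix and to bone mineral in mammals. Its reads gave 311, 115, 91.9 and 49.0 CPM in B1 to B4, a mean of 142 ± 116 CPM. B1 was 2.70-fold above the next library, and without B1 the mean was 85.3 CPM. The level lay 3.49 ± 0.43 log2 units above the reference level (adjusted p = 4.70e-05 by edgeR).

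IGFBP3, in mammals the main carrier of IGFs in blood plasma, stood at 305, 84.6, 62.5 and 65.1 CPM in B1 to B4. B1 stood apart from the other 3 libraries, which lay close together. The mean was 129 ± 118 CPM, and 70.7 ± 12.1 CPM without B1. Its level was 3.36 ± 0.44 log2 units above the reference level (adjusted p = 7.27e-05 by edgeR), and without B1 it was 2.49 and still passed.

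IGFBP7 varied little between the pools. It was measured at 32.9, 45.2, 46.4 and 28.1 CPM in B1 to B4, a mean of 38.1 ± 9.09 CPM. The highest library was 1.65-fold the lowest. The level lay 1.59 ± 0.22 log2 units above the reference level (adjusted p = 0.000374 by edgeR). All 4 calls above the reference level held under each alternative that was run.

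IGFBP1 and igfbp1b encode binding proteins that in zebrafish embryos are induced by hypoxia and restrain growth. IGFBP1, whose symbol is a RefSeq synonym of igfbp1a, stood at 71.5 CPM in B1 against 6.55, 6.34 and 5.41 CPM in B2 to B4. B1 was 10.9-fold above the next library, while the other 3 libraries agreed within an SD of 0.611 CPM around 6.10. The mean of 22.4 ± 32.7 CPM did not pass against the reference level (log2 0.83 ± 0.69, edgeR adjusted p = 0.267). Without B1 the level was 1.05 log2 units lower than the reference and passed as low (-1.05, edgeR adjusted p = 0.00428).

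igfbp1b was highest in B1 too, at 18.9 CPM against 0.298 in B2, 2.26 in B3 and 1.50 in B4. The B1 value was 8.35-fold the next, and B2, with 11 reads, was the lowest. Its mean was 5.74 ± 8.81 CPM and did not pass (log2 -1.14 ± 0.82, edgeR adjusted p = 0.302), whereas without B1 it passed as low at -3.22 (adjusted p = 0.00522). Without B1 the count of igfbp IDs below the reference level was therefore 4.

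The remaining IDs were low on average. IGFBP5 (ENSDARG00000039264) was measured at 0.732, 17.8, 2.32 and 5.28 CPM in B1 to B4, in B2 above the 12.6 CPM of the reference level. It was the lowest tested member in B1 and there held 25 reads against 658 in B2. Its mean of 6.54 ± 7.75 CPM did not pass (log2 -0.95 ± 0.65, edgeR adjusted p = 0.273), and without B2 it passed as low at -2.26 (adjusted p = 0.0311).

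igfbp6b, whose mammalian counterpart prefers IGF2, lay below the reference level by edgeR (log2 -2.15 ± 0.49, adjusted p = 0.0170). It stood at 6.74, 2.22, 1.23 and 1.18 CPM in B1 to B4, and without B1 the mean fell from 2.84 to 1.54 CPM. IGFBP2 (ENSDARG00000031422) was low and even, at 2.40, 2.27, 1.62 and 1.70 CPM in B1 to B4, and lay below the reference level (log2 -2.66 ± 0.28, edgeR adjusted p = 0.000941). igfbp6a was not tested, since it had 0, 1, 1 and 0 reads in B1 to B4, all below 3 counts.

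The order by mean CPM was that of the plot of igfbp levels, but few neighbours in it were separated beyond their spread. Within libraries, the difference in log2 CPM between neighbours exceeded its SD for 1 of 8 steps, from IGFBP3 to IGFBP7 (1.44 ± 1.23, higher in 4 of 4 libraries). The step from IGFBP2 (ENSDARG00000052470) to IGFBP5 (ENSDARG00000025348) was 0.91 ± 1.74, and that from IGFBP5 (ENSDARG00000025348) to IGFBP3 was 0.15 ± 0.44. The exact two-sided sign-flip test over 4 libraries cannot go below p = 0.125, and over the 8 steps its Benjamini-Hochberg adjusted values began at 0.750. The authors' YuGene score, a value between 0 and 1 set within each library, placed 10 of 10 members at the same rank. It follows the counts in rank within each library, so it is no separate measurement. By mean YuGene score IGFBP2 (ENSDARG00000052470) stood at 0.912 ± 0.0509, IGFBP5 (ENSDARG00000025348) at 0.834 ± 0.0975 and IGFBP7 at 0.629 ± 0.0693.

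**Figure D2:**
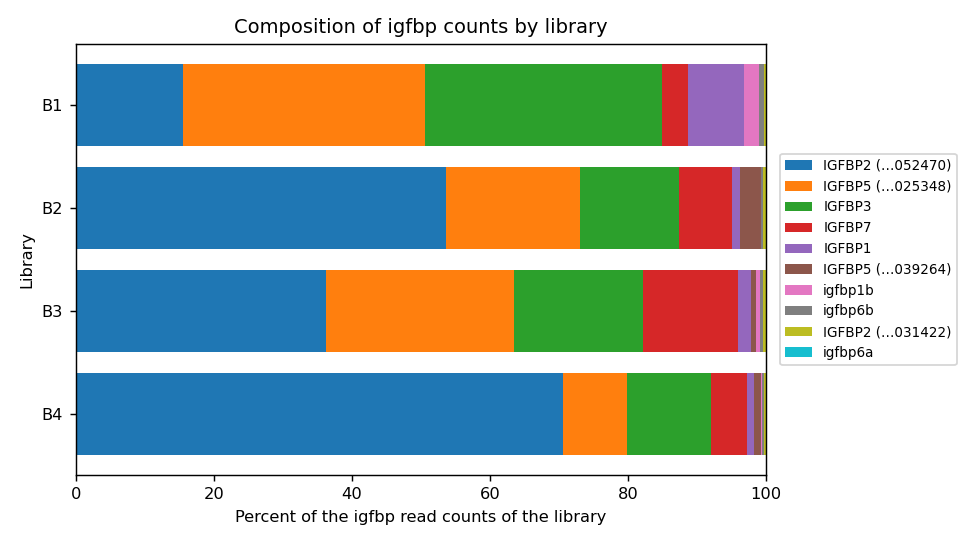
Percent of the igfbp read counts of each library (x axis) taken by each of the 10 IDs (colours). IGFBP2 (ENSDARG00000052470) takes 70.6% of the bar of B4 and 15.5% of that of B1, where IGFBP5 (ENSDARG00000025348) and IGFBP3 take 35.1% and 34.4%.

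As a share of igfbp counts, IGFBP2 (ENSDARG00000052470) took 15.5% in B1 (95% exact binomial interval 15.1 to 15.9%), 53.6% in B2 (52.9 to 54.2%), 36.2% in B3 (35.3 to 37.1%) and 70.6% in B4 (70.0 to 71.2%). It was thus the leading ID in B2, B3 and B4. In B1 IGFBP5 (ENSDARG00000025348) led with 35.1% (34.5 to 35.6%), followed by IGFBP3 with 34.4% (33.9 to 35.0%). Intervals of single libraries cover counting error only and are far narrower than the spread between libraries, which for IGFBP2 (ENSDARG00000052470) was 44.0 ± 23.6%. IGFBP7 held 7.60 ± 4.44% and IGFBP1 3.02 ± 3.39%, and the other 5 IDs each held at most 1.20% on average. Without B1 the mean share of IGFBP1 was 1.34% and that of igfbp1b 0.335% against 0.784%, and without B2 that of IGFBP5 (ENSDARG00000039264) was 0.586% against 1.20%.

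For each duplicated gene 1 copy led in the sorted cells. The copies were compared within libraries by edgeR's quasi-likelihood test with the library as a block, fitted over 3001 pairs of gene copies. One copy was higher in 4 of 4 igfbp pairs, but this was common, since it held for 70.5% of all pairs tested. A pair was fitted where at least 1 copy passed the filter. The call for igfbp6, with 2 reads of igfbp6a in total, was thereby all but set in advance. Other pairs in that share may be alike. The exact sign-flip test over 4 libraries gave its smallest possible p of 0.125 for each of the 4 pairs (Benjamini-Hochberg adjusted p = 0.125).

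IGFBP2 showed the widest gap among the pairs with reads in every library. ENSDARG00000052470 was 57.0-, 139-, 75.1- and 222-fold above ENSDARG00000031422 in B1 to B4. The fitted ratio was 107-fold (log2 difference of the lower minus the higher copy -6.74 ± 0.37, SE, edgeR adjusted p = 0.000138). For igfbp6 the pooled reads were 403 of igfbp6b against 2 of igfbp6a, a ratio of 202 with a counting interval of 55.4 to 1670. The copies differed by the edgeR test (adjusted p = 0.00177). This pair was fitted only because igfbp6b passed the filter, so the test adds little to the read counts.

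IGFBP1 exceeded igfbp1b 3.78-, 22.0-, 2.80- and 3.60-fold in B1 to B4, and B2 was the library with few igfbp1b reads. The fitted difference was 2.31 ± 0.51 log2 units (adjusted p = 0.0107 by edgeR), and without B2 it was 1.75. Both copies were highest in B1, so the ratio there was like that in B3 and B4.

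The IGFBP5 copies behaved otherwise. ENSDARG00000025348 exceeded ENSDARG00000039264 424-, 6.45-, 39.7- and 9.27-fold in B1 to B4. The leading copy was highest and the minor copy lowest in B1, while the minor copy was highest in B2. The ratio therefore moved by 5.94 log2 units between B2 and B1. This range was wider than in 98.6% of the 3001 pairs, whose median range was 1.75. The fitted difference was 4.69 ± 0.89 log2 units (adjusted p = 0.0108 by edgeR, and 0.0490 at the highest over the alternatives), and 3.68 without B1.

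**Figure D3:**
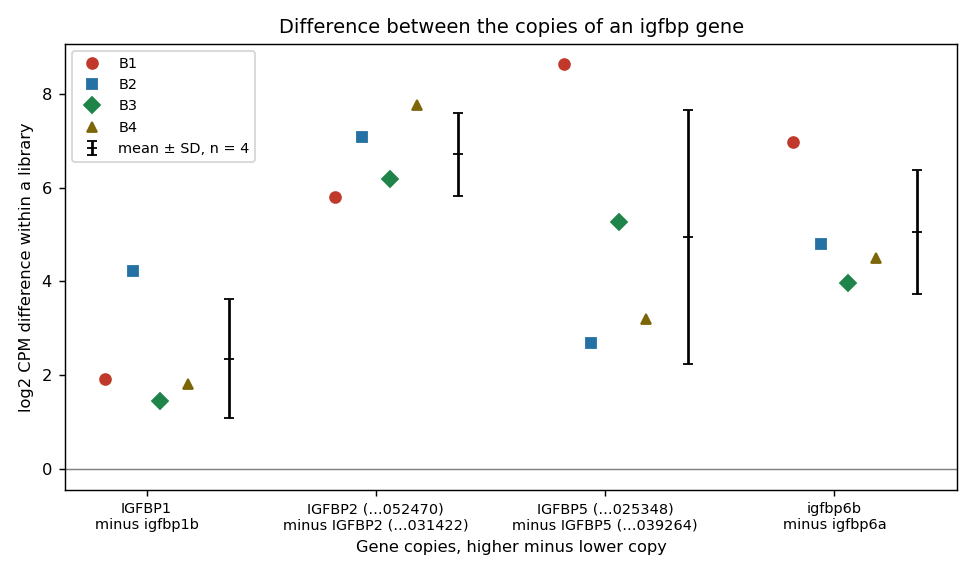
Difference in log2 CPM (prior count 2) between the higher and the lower copy of each duplicated igfbp gene within a library; symbols are the 4 libraries and the bar with caps gives mean ± SD. All differences lie above 0, and those of IGFBP5 spread widest, from 2.69 in B2 to 8.63 in B1.

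Several members stood highest in B1. Of the 9 tested members 6 were highest in B1, where 36% of all tested genes were highest. Among the 6, IGFBP2 (ENSDARG00000031422) stood there only 1.06-fold above the next library. In 4 members (IGFBP1, igfbp1b, IGFBP3 and igfbp6b) B1 was at least 3-fold above every other library, against 7.83% of all tested genes, a threshold chosen after the values were seen. One member, IGFBP5 (ENSDARG00000039264), was lowest in B1, as 43.7% of tested genes were. IGFBP3 and IGFBP1, neighbours in RefSeq if IGFBP1 is igfbp1a, were both among the 4. The rest of the 4, igfbp1b and igfbp6b, are in no such pair of igfbp neighbours.

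Marker lists also differed between B1 and the other libraries, in both directions. Of 12 neuron IDs 10 were highest in B1, with a summed level of 824 CPM against 176 to 291 CPM elsewhere. Of 9 immediate early and stress IDs, a list added after the data were seen, 5 were highest there, and the sum was 75763 CPM against 19047 to 21504. JUN gave 30863 and BTG2 23719 CPM of the B1 sum, while ier2a was lowest in B1 (425 against 705 to 1297 CPM). ATF3 was nearly even, at 524 to 574 CPM over the libraries. Pericyte markers summed to 2206 CPM in B1 against 933 to 1598, of which KCNE4 gave 955 CPM, while rgs5b was lowest there (26.8 against 178 to 680 CPM). With 8 of 18 pericyte and 6 of 14 endothelial IDs highest in B1, these lists lay near the 36% of all tested genes. Among those 8 pericyte IDs, ndufa4l2b (4 reads in total) and foxf2a (2 reads in total) were not tested. The endothelial sum was 529 against 257 to 340 CPM, and 1 CLDN5 ID (ENSDARG00000043716) gave 240 CPM of it. Lymphatic and muLEC markers summed to 358 CPM against 198 to 275 (5 of 9 highest in B1). Smooth muscle markers were lowest in B1 as a sum (450 against 560 to 788 CPM), as were radial glia markers. Even so, 4 of 10 smooth muscle and 2 of 14 radial glia IDs were highest in B1. SOX2 stood at 1453 CPM there against 108 to 165, and MYH11 (ENSDARG00000009782) at 98.3 against 32.3 to 51.8 CPM. The fibroblast sum in B1 (1649 CPM) lay within the range of the others (1028 to 5461 CPM). Of 15 fibroblast IDs 2 were highest in B1, beside 36% of all tested genes. Oligodendrocyte and microglia sums in B1 lay within the range of the others too. Of their IDs 6 of 10 and 3 of 9 were highest in B1. Among these were cnp (469 against 59.2 to 80.9 CPM) and ptprc (34.4 against 2.57 to 5.78 CPM). Of the IDs counted here, MYH11 (ENSDARG00000100972), CNN1 (ENSDARG00000017193) and csf1rb were not tested. In each of these lists 0 IDs were without reads in all libraries. The part of these transcripts in the B1 values of the igfbp genes was not tested.

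**Figure D4:**
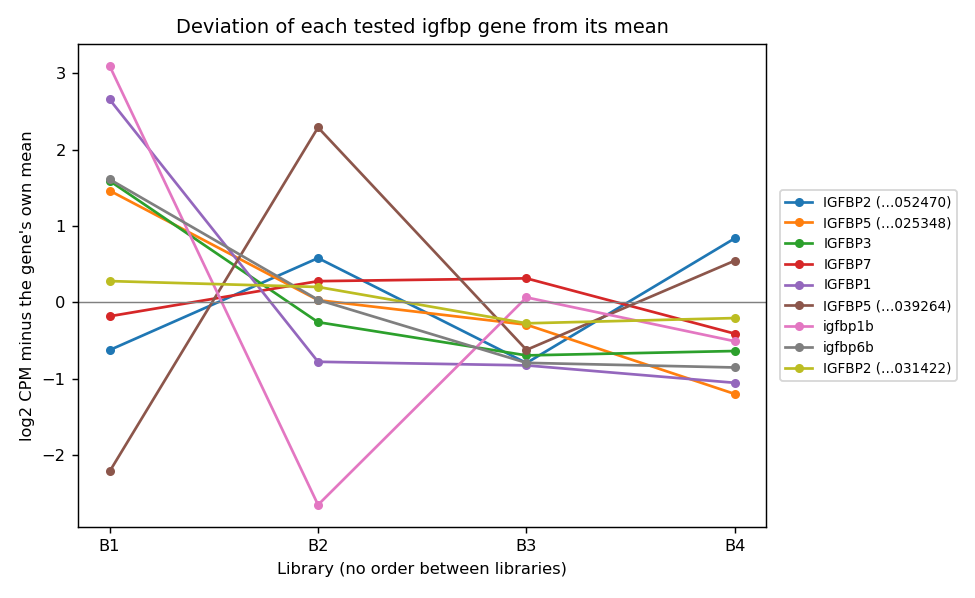
Log2 CPM (prior count 2) of each tested igfbp gene minus its own mean over the 4 libraries; lines join the values of 1 gene and the libraries have no order. IGFBP1, igfbp1b, IGFBP3, igfbp6b and IGFBP5 (ENSDARG00000025348) rise above 0 in B1, IGFBP5 (ENSDARG00000039264) drops to -2.21 there, and IGFBP7 and IGFBP2 (ENSDARG00000031422) stay close to 0.

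Variation between pools set the members apart from each other. By edgeR's tagwise biological coefficient of variation igfbp1b (1.07), IGFBP1 (0.915) and IGFBP5 (ENSDARG00000039264, 0.882) lay at percentiles 99.1, 97.6 and 97.0 of the tested genes. IGFBP7 (0.403) lay at percentile 13.9 and IGFBP2 (ENSDARG00000031422, 0.454) at 39.2. The median of the tested members was 0.645 and that of all tested genes 0.477.

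Among the members, the closest profiles over the 4 libraries were those of IGFBP3 and igfbp6b, with a root-mean-square difference of 0.189 log2 units after centring each gene on its mean. IGFBP5 (ENSDARG00000025348) was 0.313 from igfbp6b and 0.380 from IGFBP3. IGFBP5 (ENSDARG00000039264) and igfbp1b were the least alike, at 3.68. With 4 libraries many genes share a profile, so the most similar genes outside the family are a description only.

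For IGFBP5 (ENSDARG00000025348) the most similar genes were the endothelial VEGF receptor gene kdrl (0.110) and ptp4a3a (0.139), and 18 of 9400 genes lay within 0.25. For IGFBP2 (ENSDARG00000052470) they were QSOX1 (0.0569) and PAPSS2 (0.107), with 7 genes within 0.25. IGFBP1 was nearest to MAFK (0.0391) and FEM1C (0.0420), with 60 genes within that distance. igfbp6b was nearest to glis3 (0.105) and the keratin gene krt91 (0.113), with 50. IGFBP3 was nearest to FAM184A (0.0468) and RUNDC1 (0.0507), with 250, and IGFBP7 to spink2.1 (0.0365) and SANBR (0.0559), with 496. IGFBP2 (ENSDARG00000031422) was nearest to si:ch211-147a11.3 (0.0203) and DENND2C (0.0225), with 949 within that distance. IGFBP5 (ENSDARG00000039264), nearest to TFPI2 (0.366) and SOST (0.371), and igfbp1b, nearest to zgc:77375 (0.493) and TAL2 (0.493), had 0 genes that close.

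Transcripts of the factors that the binding proteins hold were present in the same libraries. Of 6 ligand IDs 3 were tested, and 3 of them lay above the reference level by edgeR, beside 36.8% of all tested genes. IGF1 stood at 50.4 ± 24.6 CPM (log2 1.99 ± 0.32 over the reference level, adjusted p = 0.000630). igf2b stood at 78.7, 80.5, 79.4 and 130 CPM in B1 to B4, so that B4 was the high library. igf2a was 12.4, 36.5, 36.1 and 94.0 CPM in B1 to B4, with a mean of 44.7 CPM that fell to 28.3 CPM without B4. igf3 and the insulin genes ins and insb were at most 0.135 CPM in any library and were not tested. Of the 3 tested ligands 0 were highest in B1, beside 36% of all tested genes.

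Receptor transcripts were mixed. Of 5 IDs 1 lay above the reference level and 2 below it, beside 36.8% and 33.2% of all tested genes. INSR (ENSDARG00000011948), an insulin receptor copy, stood at 130 CPM in B1 and 36.7 to 50.2 CPM in the others (log2 2.40 ± 0.34, edgeR adjusted p = 0.000237). The other INSR copy (ENSDARG00000071524) was 22.6 CPM in B1 and 5.52 to 6.33 CPM elsewhere, did not pass (-0.34), and passed as low without B1 (-1.12). For IGF1R, the main signalling receptor of both IGFs, ENSDARG00000034434 stood at 13.7 ± 3.44 CPM without passing (0.12, and -0.04 without B1 or -0.01 without B3), and ENSDARG00000027423 at 3.12 ± 0.899 CPM, below the reference level (-2.02). IGF2R, which takes up IGF2 for breakdown in mammals, was low at 7.18 ± 1.13 CPM (-0.82, adjusted p = 0.0227), a call lost without B3 or B4 (-0.97 and -0.85). In each of those cases 1 receptor ID lay below. Of the 5 receptor IDs 4 were highest in B1, beside 36% of all tested genes.

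Proteases reported to cleave IGF-binding proteins ranged widely. Of 11 tested IDs 6 lay above the reference level and 3 below by edgeR, beside 36.8% and 33.2% of all tested genes, with a median of 1.09 log2 units over it. Those above were the lysosomal protease CTSD at 487 ± 195 CPM, the gelatinase MMP2 at 388 ± 163, both MMP14 copies at 99.6 ± 29.4 (ENSDARG00000002235) and 74.7 ± 18.8 (ENSDARG00000008388), ADAMTS1 at 76.0 ± 56.4 and HTRA1 (ENSDARG00000032831) at 27.0 ± 11.5 CPM. The mean of ADAMTS1 was 49.1 CPM without B2, and HTRA1 (ENSDARG00000032831) lost its call without B4 (log2 0.72 against 1.09). Both copies of PAPPA, the metalloproteinase that frees IGFs from IGFBP4 and IGFBP5 in mammals, lay below the reference level, at 5.95 ± 2.90 CPM (ENSDARG00000059858) and 1.11 ± 0.614 CPM (ENSDARG00000101090).

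The third protease ID below was HTRA3 (ENSDARG00000052895) at 3.92 ± 2.93 CPM. The calls of PAPPA (ENSDARG00000059858, log2 -1.09) and HTRA3 (ENSDARG00000052895, -1.69) were lost without B3 (-1.28 and -1.53) and without B4 (-0.97 and -1.46), which left 1 protease ID below in each case. HTRA1 (ENSDARG00000014907), at 22.8 ± 16.6 CPM, and HTRA3 (ENSDARG00000010925), at 6.42 ± 4.48 CPM, did not pass. The HTRA1 ID lay 0.85 log2 units over the reference level, passed as high without the filter (adjusted p = 0.0467 by edgeR), and fell to 14.8 CPM (0.16) without B2. The HTRA3 ID was -0.98 log2 units from the reference level and passed as low without B1 (-1.37) and with the DESeq2 test (adjusted p = 0.0445). PAPPA2, at 0.731 ± 0.378 CPM, was not tested. CTSD and MMP2 were lowest in B1, at 214 and 183 CPM, as were ADAMTS1, MMP14 (ENSDARG00000002235) and HTRA1 (ENSDARG00000032831), beside 43.7% of all tested genes. MMP14 (ENSDARG00000008388) was highest there at 97.7 CPM, as were HTRA3 (ENSDARG00000010925) and PAPPA (ENSDARG00000101090), beside 36% of all tested genes.

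**Figure D5:**
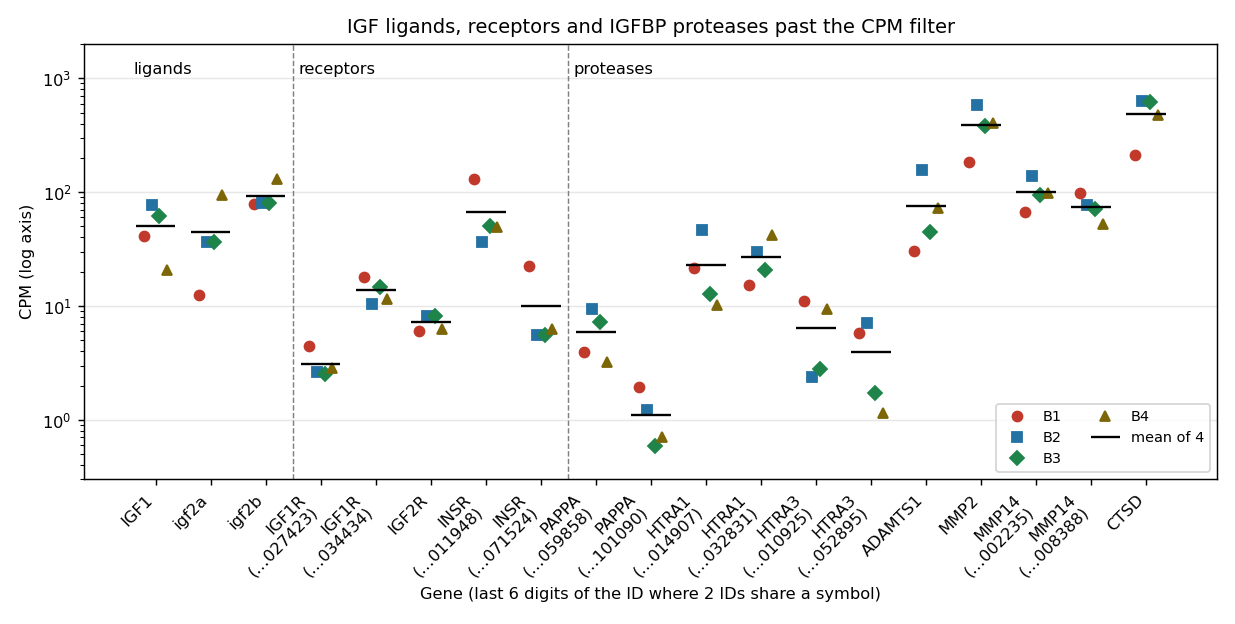
CPM (log axis) of the IGF ligand, receptor and IGFBP protease genes that passed the CPM filter; symbols are the 4 libraries and bars the means. IGF1, igf2a and igf2b have means between 44.7 and 92.3 CPM, the IGF1R copies stand at 13.7 and 3.12 CPM, and CTSD and MMP2 lead the proteases.

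Inhibitors of PAPPA and partners of the binding proteins were near the reference level or scarce. STC1 (ENSDARG00000003303), a stanniocalcin, stood at 14.1 ± 7.70 CPM and STC2 (ENSDARG00000056680) at 10.3 ± 5.58 CPM. Neither passed in either direction, and STC1 changed sign without B2 (log2 -0.35 against 0.16). The second STC2 ID (ENSDARG00000102206) was at 0.135 ± 0.141 CPM. IGFALS, which in mammalian plasma joins IGFBP3 and an IGF in a ternary complex, had 1 read in the 4 libraries together.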

How the data were processed

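RNA sequencing of 4 libraries of a single group was used. The authors deposited read counts per Ensembl gene ID without normalization, and their YuGene score, which runs from 0 to 1 within a library. The submitters' processing notes name bcl2fastq, R 3.2.2 and the build GRCz10. No source used here names the aligner, the counter or the annotation. Reads were amplified and carry no molecular identifiers, so intervals cover counting error only. Columns of values left out numbered 0.

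Counts were scaled by TMM with edgeR 4.0.16 in R 4.3.3, and a gene was tested where 2 or more libraries reached 1 CPM. An intercept-only quasi-likelihood fit compared each level, two-sided, with the median tested gene, and the F statistic was formed from the drop in deviance as edgeR's test function forms it. The planned correction for gene length could not be made, because the tables used give no transcript length. Copies were paired by a/b symbols, by a capital symbol with its lettered copy, or by a symbol shared by exactly 2 IDs, and compared on stacked counts with the library as a block. Reads of near-identical copies could be split by the counting. Both fits were run on simulated data in which all genes shared the same biological coefficient of variation and no library stood apart. That setting differs from these data, so it does not cover the members that varied most. Alternatives were DESeq2's size factors, no filter, DESeq2 1.42.0, limma 3.58.1 and leaving out each library. The members and lists were chosen with earlier results of these data known. Named were all members, every IGF ligand, receptor and IGFBP protease of the lists, the 3 most abundant genes of the other lists, and the 2 genes of at least 10 CPM most similar to each member. One gene that this rule names is not reported here. List entries without an ID, such as insrr, were left out.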

Additional observations from a re-analysis of the deposited data

Results flagged for a closer look

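Of 40 values examined for a library far from the other 3, 9 were set apart by the ratio of the gap to the whole range. In these the ratio exceeded Dixon's 95% critical value for 4 libraries. For normally distributed values chance alone would give about 1 such case in 20, but gene levels were taken as untransformed CPM. In these libraries 16.6% of tested genes had such a case, and in 11.8% it was B1 on the high side. For the members the ratio was 0.983 for IGFBP1, 0.909 for IGFBP3 and 0.894 for igfbp1b, each high in B1. The copy difference of IGFBP1 and igfbp1b had a ratio of 0.837, from the high value in B2. Among the other genes it was 0.964 for igf2b, high in B4. High in B1 were INSR (0.953 for ENSDARG00000071524 and 0.855 for ENSDARG00000011948), FOXO1 (ENSDARG00000099555, 0.937) and IGF1R (ENSDARG00000027423, 0.837).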

How the results depend on the processing

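Under the 8 alternatives run, all 32 copy differences kept their direction and side of the threshold, as did 67 of 72 member levels. The 32 include those of igfbp6, a pair fitted only because igfbp6b passed the filter. IGFBP1 reversed its sign with limma (-0.0417) and without B1 (-1.05), both from 0.83. igfbp1b passed as low with limma (-2.48). Leaving out 1 library at a time, the levels ranged from -1.05 to 1.07 for IGFBP1, from -3.22 to -0.81 for igfbp1b and from -2.26 to -0.57 for IGFBP5 (ENSDARG00000039264). Member IDs below the reference level then numbered 2 to 4. Among other genes IGF1R (ENSDARG00000034434) reversed without B1 (-0.0398) and B3 (-0.0103) in a range up to 0.151, and STC1 without B2, in a range from -0.35 to 0.38. Without the filter 16928 of 28308 tested genes lay below the reference level, kept at its filtered value, instead of 5743 of 17283. Many scarce genes were then tested. Among them igfbp6a, with 2 reads in total, was called below (log2 -9.85, edgeR adjusted p = 0.00129). IDs below then numbered 3 ligands, 3 inhibitors or partners and 4 genes of the shared domain. That last count, 1 in the fit of the report, was 3 with DESeq2's size factors, 2 with DESeq2's test and 2 with limma. It was 1 to 2 when single libraries were left out, as receptors and proteases were 1 to 3. The cause was not tested where no construction is named. The length alternative was not run. No paired comparison of groups was possible because there is 1 group. Depth limits igfbp6a, igf3, ins, insb and IGFALS, whose reads stayed near the floor of 3 counts.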

Other observations

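Genes that share the N-terminal IGF-binding domain but are not members were led by CCN1, a matricellular protein gene, at 346 ± 183 CPM, followed by CCN2 at 67.3 ± 46.7 and CRIM1 at 67.1 ± 41.6 CPM. Of 10 tested IDs of that list 5 lay above the reference level and 1 below by edgeR, beside 36.8% and 33.2% of all tested genes. Of the downstream genes of IGF and insulin signalling, 13 of 19 tested IDs lay above and 2 below, with a median of 1.32 log2 units over the reference level. FOXO1 (ENSDARG00000099555), a transcription factor held in check by this signalling, stood at 182 ± 180 CPM, with 451 CPM in B1 against 82.9 to 106 CPM in the others and a mean of 91.9 CPM without B1. foxo3b stood at 169 ± 95.3 CPM. Of the 20 IDs of this list 13 were highest in B1, beside 36% of all tested genes. Among those 13, the second FOXO1 ID (ENSDARG00000061549, 50 reads in total) was not tested.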
